A study of Rattus norvegicus with 32 samples.

Results

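Electrical activation of the heart depends on 3 sets of membrane proteins, and 7 of their genes were followed here in the left ventricle of septic rats. The genes were Scn4b and Scn7a of the sodium channel family, Hcn2 and Hcn4 of the pacemaker channels, and Gja1, Gja5 and Gjc1 of the connexins. They were taken by name from the annotation in the array files, which held 34912 distinct names in all, and 10 of 45598 probes carried one of the 7. Gja5, Gjc1 and Scn7a had 2 probes each and the other 4 genes had 1, and every one of the 10 probes was bright enough to be tested in both sexes.

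The material was left ventricle of young adult Wistar rats, taken 20 h after surgery, with 32 rats in all. Sham animals (5 males and 5 females) were set against animals with cecal ligation and puncture, or CLP (5 males and 5 females), a surgical model of abdominal sepsis. Another group (6 males and 6 females) had CLP followed by an infusion of landiolol, a short-acting blocker of the beta-1 adrenergic receptor. In every group the heart had been perfused outside the body before it was frozen, and no group received landiolol without CLP. RNA of 1 rat was hybridised to 1 array, and the values are normalised intensities on the log2 scale, so a difference of 1 is a doubling. Intensities of different probes cannot be compared, and males and females lay on separate slides, so levels were compared only within a probe and within a sex. Each array had between 34920 and 43155 of its 58717 non-control spots well above background. All 9 ventricular muscle markers, among them Myl2, Myh7 and Tnnt2, were above background and none passed the test in any of the 6 comparisons.

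Voltage-gated sodium channels carry the inward current that starts the action potential of working heart muscle and lets it travel. Scn4b encodes a beta subunit that modifies their gating, and Scn7a encodes an atypical channel known from glia and other non-muscle cells that responds to sodium level. HCN channels open on hyperpolarisation, are tuned by cyclic AMP and carry the pacemaker current; Hcn4 is the main form in the sinoatrial node and Hcn2 a form found also in the ventricle. Connexins form the gap junctions that pass current from cell to cell: Gja1 (Cx43) in ventricular muscle, Gja5 (Cx40) in atrial muscle, the His-Purkinje system and arterial endothelium, and Gjc1 (Cx45) in the nodes and in low amount elsewhere.

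The upstream sequences of Gja5, the gene that passed the test below, and of Gja1, the ventricular connexin that did not, are printed for comparison. Each is the 250 bases before the annotated gene start in RefSeq, build GRCr8, plus strand, at chr2:187290977-187291226 for Gja5 and chr20:36302314-36302563 for Gja1. Capitals mark matches, on either strand, to 6 short motifs. A Sp-type GC box was searched as GGGCGG, the half-site of T-box factors as TCACAC, and the core of Nkx2-5 sites as AAGTG. The core of AP-1 sites was searched as TGACTCA, that of GATA factor sites as GATAAG, and the TATA box as TATAAA.
Gja5 promoter: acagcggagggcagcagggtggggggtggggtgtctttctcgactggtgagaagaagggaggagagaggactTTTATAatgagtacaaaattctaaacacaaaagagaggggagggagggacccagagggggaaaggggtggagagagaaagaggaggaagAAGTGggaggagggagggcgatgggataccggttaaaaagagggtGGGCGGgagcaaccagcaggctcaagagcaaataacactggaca
Gja1 promoter: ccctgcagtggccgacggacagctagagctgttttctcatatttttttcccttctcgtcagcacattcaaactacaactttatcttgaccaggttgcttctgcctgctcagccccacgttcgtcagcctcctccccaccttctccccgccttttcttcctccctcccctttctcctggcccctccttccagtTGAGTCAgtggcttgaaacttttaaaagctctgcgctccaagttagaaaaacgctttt
The Gja5 stretch held 1 TATA box match 178 bases before the start, 1 Nkx2-5 core 89 bases before it and 1 GC box 44 bases before it. Of 33469 rat promoter windows of this length, 12.9% held the TATA letters, 40.6% the Nkx2-5 core and 30.5% the GC box. The Gja1 stretch held an AP-1 core 58 bases before the start, which 4.05% of the windows held. The T-box half-site was found in 11.6% of all windows and the GATA core in 6.18%, and neither lay in these 2 stretches. Such matches describe letters only. Promoter entries were matched for 5 of the 7 genes, not for Hcn4 and Gjc1.

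Gja5 rose in septic females. Its brighter probe (chr2:191843785-191843844, build rn4, plus strand) read 7.45, 7.44, 8.74, 7.98 and 7.08 in the 5 female sham arrays and 9.76, 9.41, 9.21, 10.44 and 9.81 in the 5 female CLP arrays. Every CLP array was above every sham array. The difference was 1.99 on the log2 scale (SE 0.29, 95% interval 1.38 to 2.60), a 3.97-fold higher level, and passed the 1% false discovery rate (FDR) set for this comparison (limma, adjusted p = 0.000569). The second Gja5 probe (chr2:191843213-191843272) was dimmer and read 6.69, 5.71, 7.25, 6.50 and 5.41 in the female sham arrays and 7.81, 7.66, 8.14, 9.0 and 6.97 in the female CLP arrays. It went the same way by 1.60 (SE 0.38), but 1 CLP array lay below the highest sham array and the difference missed the 1% level (limma, adjusted p = 0.0149).

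Within slides the female difference of Gja5 was 2.17 on one slide (2 CLP and 3 sham arrays) and 1.88 on the other (3 and 2 arrays). All 5 female sham arrays and 3 of the female CLP arrays lay in one row of their slides, and with the row as a term the difference was 1.72 (limma, adjusted p = 0.00678).

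Landiolol-treated septic females held an intermediate level of Gja5. The brighter probe ranged from 8.51 to 9.30 with a median of 8.84 over the 6 arrays, and its range overlapped those of both other female groups. Against CLP the difference was -0.84 (SE 0.28, 95% interval -1.42 to -0.25), which did not pass the 5% level of that comparison (limma, adjusted p = 0.307). Against sham it was 1.15 (SE 0.28, 95% interval 0.57 to 1.74), which missed the 1% level (limma, adjusted p = 0.0124) and would have passed at 5%. All 6 landiolol arrays and no sham array of the females lay in the second row of the slides; with the row as a term the difference from sham was 0.48 (adjusted p = 0.808). Without female sham replicate 3, the highest of its group, it was 1.4 and passed the 1% level (adjusted p = 0.00226). The second probe differed by -0.52 from CLP (adjusted p = 0.71) and by 1.08 from sham (adjusted p = 0.0628).

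In males Gja5 did not pass in any comparison. The brighter probe read 9.03, 8.39, 8.53, 7.65 and 8.89 in the male sham arrays and 9.15, 8.16, 7.73, 8.13 and 9.69 in the male CLP arrays, and the groups overlapped throughout. The difference of CLP from sham was 0.07 (SE 0.33, 95% interval -0.63 to 0.77). With landiolol the 6 male arrays lay close together, from 8.83 to 9.38 with a median of 9.23, which was 0.59 above CLP (limma, adjusted p = 0.412) and 0.66 above sham (adjusted p = 0.214). The second probe did not follow this, with a difference of 0.01 between landiolol and CLP.

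**Figure D1:**
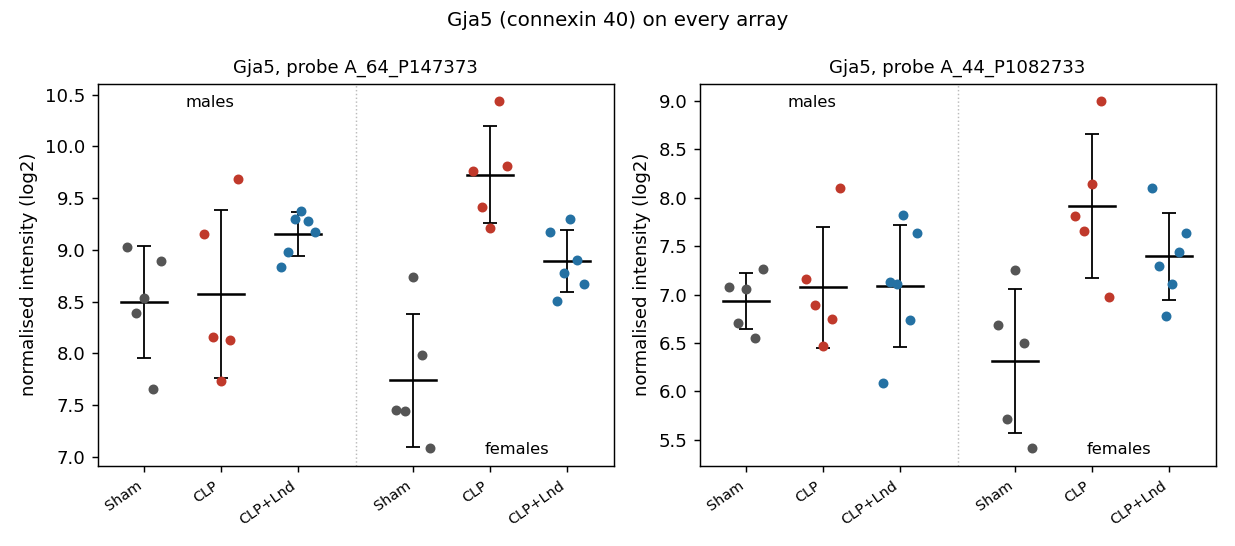
Normalised intensity (log2) of the 2 Gja5 probes on every array, with each point 1 rat, the horizontal line the group mean and the bar 1 SD (n = 5 for sham and CLP, n = 6 for CLP plus landiolol, written CLP+Lnd). In females the brighter probe (left) lies between 7.08 and 8.74 in sham and between 9.21 and 10.44 in CLP, while the male groups overlap.

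The change of Gja5 with CLP was set against the change in the other sex. For the brighter probe, the male change minus the female change was -1.93 (SE 0.45, 95% interval -2.85 to -1.01, unadjusted p = 0.000186 in the limma fit of 32 arrays). Over the 26490 probes tested this did not pass the 5% FDR (adjusted p = 0.848), and 0% of all probes passed, with 0.848 the lowest adjusted p of any. For the change with landiolol the male value was 1.43 higher than the female value (SE 0.43, unadjusted p = 0.00251, adjusted p = 0.969), and again 0% of all probes passed. The second Gja5 probe gave -1.46 for the change with CLP (SE 0.52, unadjusted p = 0.00852, limma). For the change with landiolol it gave 0.53 (SE 0.49, unadjusted p = 0.289), so it did not bear out the value of the brighter probe. Counted by the brightest probe at an unadjusted p under 0.05, Gja5 was the only one of the 7 genes for the change with CLP. For the change with landiolol Gja5 and Hcn4 were the 2. Of all probes, 3.76% and 4.93% were under that p.

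Markers of the tissues in which Gja5 is known were read beside it. Of 6 arterial endothelium markers 5 were bright enough to test, and in females the median difference of CLP from sham was -0.36, against -0.01 over all probes. Their summed intensity ranged from 2560 to 4670 in female sham, 2380 to 3530 in female CLP and 2520 to 4220 in females with landiolol. The Efnb2 probe alone made up 28.5% to 64% of this sum on the female arrays. Sox17, the remaining marker, was well above background on 0 of 16 male and 3 of 16 female arrays. Bmx, a tyrosine kinase of arterial endothelium, rose by 1.28 (SE 0.24, limma adjusted p = 0.0036), and Gja4 (Cx37), the other arterial connexin, differed by -0.36 (adjusted p = 0.387). The atrial markers Myl7, Myl4, Sln and Nppa differed by 0.74, -0.21, -0.51 and 1.03 in the same comparison and none passed, with adjusted p from 0.502 to 0.715. Bmp10, which defines right atrial muscle, was above background on no array. The summed atrial marker intensity ranged from 136000 to 173000 in female sham and from 97000 to 168000 in female CLP, but the Myl4 probe made up 88.4% to 99.4% of it on the female arrays, so it says little of the other markers. In pieces of tissue, more cells of a type and more RNA per cell cannot be told apart, and the part of these cell types in the Gja5 value was not tested.

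The other connexins of the heart showed narrow differences. Gja1, at chr20:35422026-35422085, had group means between 13.13 and 13.42, and its differences in the 6 comparisons lay between -0.14 and 0.21. For CLP against sham the interval was -0.23 to 0.64 in males and -0.39 to 0.33 in females, so a change of the size seen for Gja5 lay outside both. Its adjusted p was 0.57 in males and 0.957 in females (limma).

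Gjc1 was read by 2 probes, neither mapped to a position in the files. The brighter one carried the name Gjc1 only in the annotation of the female files and a transcript identifier in that of the males, so its identity is less sure than that of the second, which both annotations name. The group means of the brighter probe ran from 9.21 to 9.52, and its differences between CLP and sham were 0.12 in males (95% interval -0.18 to 0.41) and 0.09 in females (-0.28 to 0.46). The second probe gave 0.08 (-0.25 to 0.41) and -0.03 (-0.43 to 0.37). Neither probe passed in any comparison.

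Hcn4 was lower in septic males, short of the 1% level. Its probe (chr8:62667159-62667218, plus strand) read 7.89, 9.16, 7.78, 8.04 and 9.15 in male sham arrays and 7.48, 6.87, 6.21, 5.44 and 6.65 in male CLP arrays. All 5 CLP arrays lay below all 5 sham arrays, the closest pair 7.48 and 7.78. The difference was -1.87 (SE 0.53, 95% interval -3.00 to -0.75), a 3.67-fold lower level, with a limma adjusted p of 0.0245. It would have passed at an FDR of 5%, and it passed the 1% level with SAM, the test used in the study's methods. The adjusted p rose above 0.05 without male sham replicate 2 or 5 or male CLP replicate 3 or 4, to at most 0.072. Within slides the difference was -1.67 (3 CLP and 2 sham arrays) and -2.28 (2 and 3 arrays).

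With landiolol the male Hcn4 values spread from 6.27 to 9.44 with a median of 7.35, overlapping both other male groups. Their mean was 1.14 above CLP (SE 0.51, unadjusted p = 0.0402, limma adjusted p = 0.312) and -0.74 from sham (adjusted p = 0.403). In females Hcn4 read 7.53, 7.37, 8.59, 9.35 and 8.92 in sham and 7.69, 8.69, 6.90, 7.79 and 7.36 in CLP, a difference of -0.67 (SE 0.43, adjusted p = 0.385) with overlapping groups. Landiolol-treated females ranged from 6.21 to 8.17 with a median of 7.02, which was -1.23 from sham (SE 0.41, adjusted p = 0.0599) and -0.56 from CLP (adjusted p = 0.725). Under the alternatives run, the difference from sham lay between -1.47 and -0.93. Its adjusted p ran from 0.0223 to 0.719 over the limma and SAM fits. All female sham arrays lay in one row of the slides and all female landiolol arrays in the other. The order of the means in males was sham, landiolol, CLP, and in females sham, CLP, landiolol, and no neighbours in either order passed a test. The landiolol change was 1.69 higher in males than in females (SE 0.68, unadjusted p = 0.0184), which did not pass over all probes (adjusted p = 0.969).

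The atrial markers gave a median difference of -0.80 for CLP against sham in males, against 0.01 over all probes, and their summed intensity, of which the Myl4 probe made up 92.5% to 99.3%, ranged from 114000 to 196000 in male sham and from 99900 to 163000 in male CLP. Myl4 itself differed by -0.26 (adjusted p = 0.468). Sln, the sarcolipin of atrial muscle, differed by -1.59 (SE 0.65, adjusted p = 0.115) and Myl7 by -0.81 (adjusted p = 0.399). The part of conducting or atrial tissue in the Hcn4 value was not tested.

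Hcn2 was the only one of the 7 genes that was not well above background on every array. It was not well above background on 2 of 6 arrays of landiolol-treated males, 2 of 6 of landiolol-treated females and 1 of 5 of septic females. Its probe (chr7:11485814-11485873, minus strand) read 5.13, 7.60, 6.97, 7.48 and 7.0 in male sham and 4.81, 5.99, 5.80, 5.62 and 5.92 in male CLP, where the low first sham array made the groups overlap. The difference was -1.20 (SE 0.58, 95% interval -2.44 to 0.03, limma adjusted p = 0.186), and -1.63 without that array. Landiolol-treated males, from 3.66 to 6.72, differed by -1.67 from sham (SE 0.56, unadjusted p = 0.00872, adjusted p = 0.0708). With another background correction (normexp) this was -0.85 (adjusted p = 0.0439), and with the deposited log2 values -1.08 (adjusted p = 0.128). In females sham arrays read 7.19, 7.5, 6.06, 7.10 and 6.16 and CLP arrays 5.17, 7.68, 6.14, 6.78 and 2.04. The difference of -1.24 (SE 0.85, adjusted p = 0.426) was -0.36 without the array at 2.04, and it was 0.76 on one slide and -2.85 on the other. Among landiolol-treated males, arrays with a median signal of 81.58, 74.99 and 49.16 before normalisation read 4.56, 3.66 and 4.06. Those with 119.1, 117.6 and 113.1 read 5.51, 6.72 and 6.48. The lowest array of male CLP (median signal 80.1) and of female CLP (69.6) was also the dimmest of its group. Among landiolol-treated females the dimmest array (72.28) read the lowest, 4.21. But replicate 5 of that group (98.29) read 4.28, while the dimmer replicates 4 (93.89) and 2 (86.59) read 7.36 and 5.08. The highest female CLP array, at 7.68, was the next dimmest of its group (86.61). Male sham replicate 5 was dimmer (74.84) than the low replicate 1 (77.14) but read 7.0. The part of array brightness was not tested.

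Scn4b, the sodium channel beta subunit (chr8:48106487-48106546, 2 spots per array), had a lower mean than sham in each septic group, and none of the differences passed. Male sham arrays read 10.87, 12.53, 12.01, 11.89 and 12.05, male CLP arrays 10.71, 12.14, 10.94, 11.21 and 12.01, and landiolol-treated males ranged from 10.55 to 11.59 with a median of 11.02. The differences from sham were -0.47 for CLP (SE 0.32, limma adjusted p = 0.374) and -0.83 for CLP plus landiolol (SE 0.31, unadjusted p = 0.0158, adjusted p = 0.103). Female sham arrays read 10.91, 11.79, 10.96, 11.18 and 11.65 and female CLP arrays 11.01, 11.82, 11.51, 10.67 and 9.02. The array at 9.02 was the same one in which Hcn2 read 2.04, and without it the difference of -0.49 became -0.04. Male sham replicate 1 and male CLP replicate 1 were also the lowest of their groups for both genes. With the row of the array on its slide as a term, the female difference from sham turned to 0.15 for CLP and to 0.96 for CLP plus landiolol, and neither passed. All female sham arrays lay in one row and all female landiolol arrays in the other, so only the CLP arrays inform that term.

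Scn7a did not differ between sham and CLP beyond its spread. The brighter probe (chr3:48633684-48633743, minus strand) gave -0.12 in males (95% interval -0.74 to 0.50) and -0.24 in females (-0.63 to 0.16), and the second (chr3:48634739-48634798) gave -0.02 and -0.19. With landiolol both probes were higher than in CLP, by 0.42 and 0.44 in males and by 0.26 and 0.35 in females, with limma adjusted p from 0.423 to 0.708. Glial markers were read beside it, since Scn7a is known from Schwann cells. Sox10, a Schwann cell transcription factor, differed by 0.31 in males (adjusted p = 0.229) and by 0.09 in females (adjusted p = 0.795) for CLP against sham. Of the 6 Schwann cell and neuron markers, all tested, 2 fell in septic males (7.81% of all probes passed) and 1 in septic females (3.63%). Their summed intensity ranged from 1130 to 1870 in male sham and 745 to 1530 in male CLP, and from 1290 to 1560 in female sham and 964 to 1400 in female CLP. For landiolol against CLP the median of these markers was 0.60 in males, with 1 called higher (1.56% of all probes passed). In females it was 0.33, with none called (0.0945%). The summed intensity of the markers with landiolol ranged from 1190 to 2390 in males and from 1050 to 1920 in females. Their part in the Scn7a values was not tested.

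**Figure D2:**
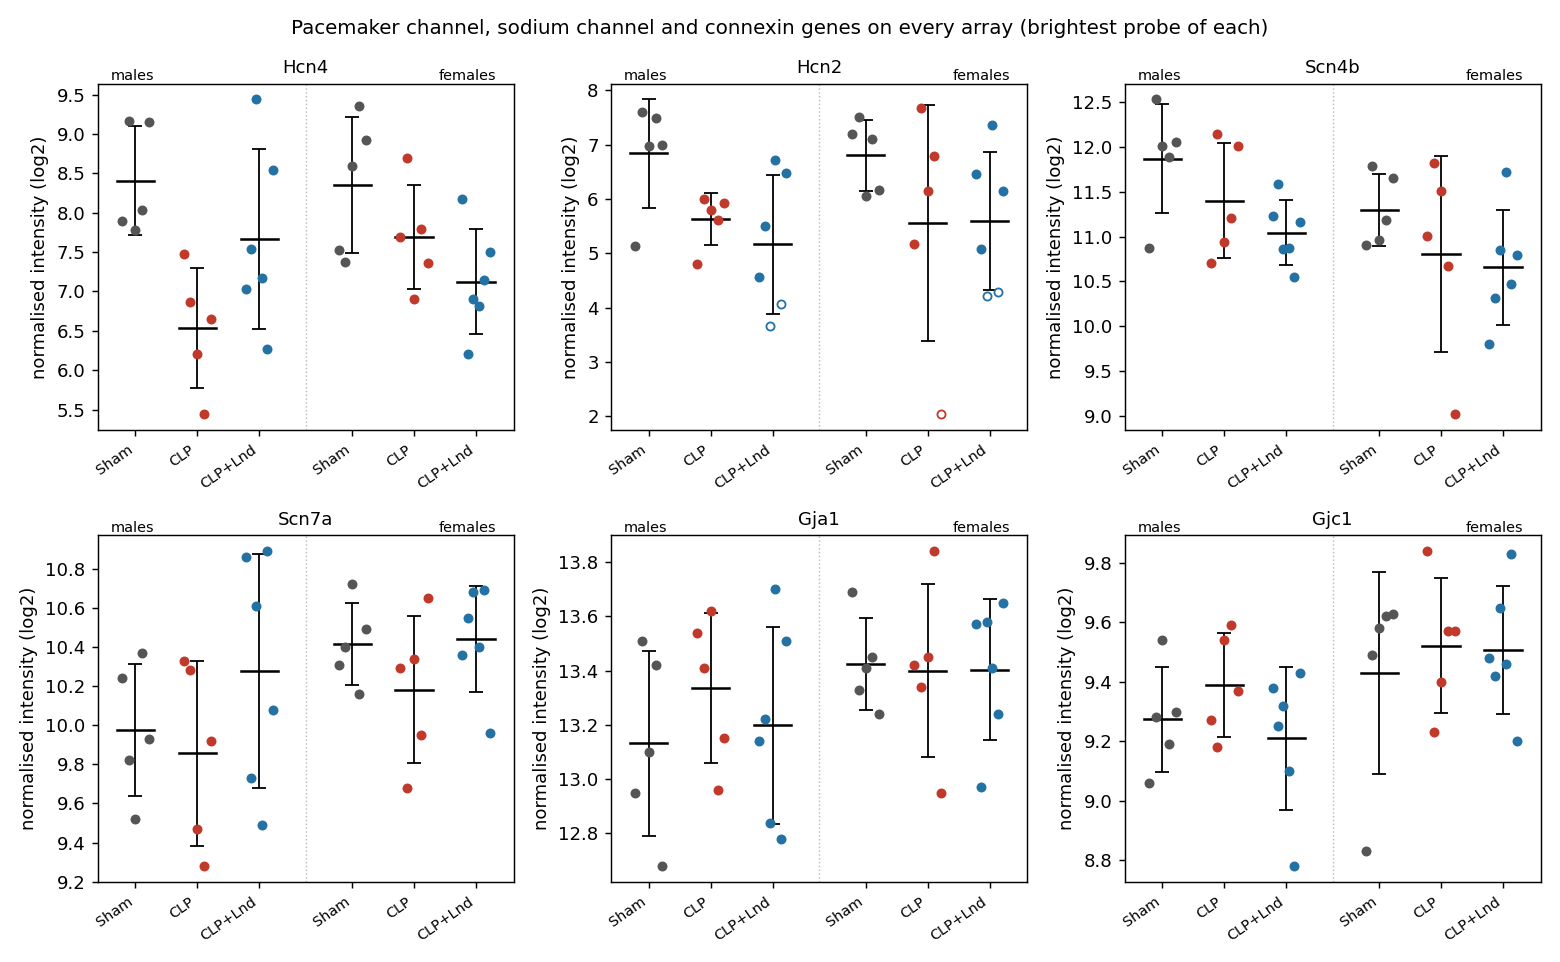
Normalised intensity (log2) of Hcn4, Hcn2, Scn4b, Scn7a, Gja1 and Gjc1 (brightest probe of each) on every array; each point is 1 rat, filled when the probe was well above background and open when it was not, with the group mean and 1 SD (n = 5, 5 and 6 in each sex). Hcn4 in males shows sham (7.78 to 9.16) and CLP (5.44 to 7.48) apart, and the other panels show overlapping groups.

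Counted over the 7 genes by their brightest probe, CLP against sham gave 0 calls in males at the 1% FDR, where 7.81% of all 25864 probes passed (limma). At an unadjusted p under 0.05 it gave 1 gene, Hcn4, where 28.8% of all probes did. At an FDR of 5% it gave the same gene (16% of all probes), as did SAM at 1% (9.92% of all probes) and a count of groups that did not overlap (12.3% of all probes). In females CLP against sham gave 1 call, Gja5, where 3.63% of 25394 probes passed. Gja5 was also the 1 gene at an FDR of 5% (9.17% of all probes), with SAM (5.03%) and without overlap of groups (8.32%). The median difference of the 7 genes was -0.12 in males and -0.24 in females, against 0.01 and -0.01 over all probes. A count of 0 or 1 among 7 genes is no result about the set.

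Landiolol against CLP gave 0 calls in males and 0 in females at the 5% FDR (limma), where 1.56% and 0.0945% of all probes passed. SAM also gave 0 in each sex, with 4.18% and 0.374% of all probes called. The groups overlapped for all 7 genes in both sexes, where 2.26% and 1.15% of all probes did not. At an unadjusted p under 0.05 there was 1 gene in males, Hcn4, and 1 in females, Gja5, with differences of 1.14 and -0.84, where 14.8% and 9.34% of all probes were under that p. Landiolol against sham gave 0 calls at the 1% FDR in males, where 4.15% of all probes passed, and 0 in females, where 5.25% passed. SAM gave 0 in males (6.2% of all probes) and 1, Gja5, in females (11% of all probes), and all 7 genes overlapped between the groups, where 7.79% and 9.74% of all probes did not. At an unadjusted p under 0.05 there were 2 genes in males, Hcn2 and Scn4b, and 2 in females, Gja5 and Hcn4, where 24.2% and 26.7% of all probes were. Each pair of the 3 comparisons of a sex shares a group, so their values are not independent.

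**Figure D3:**
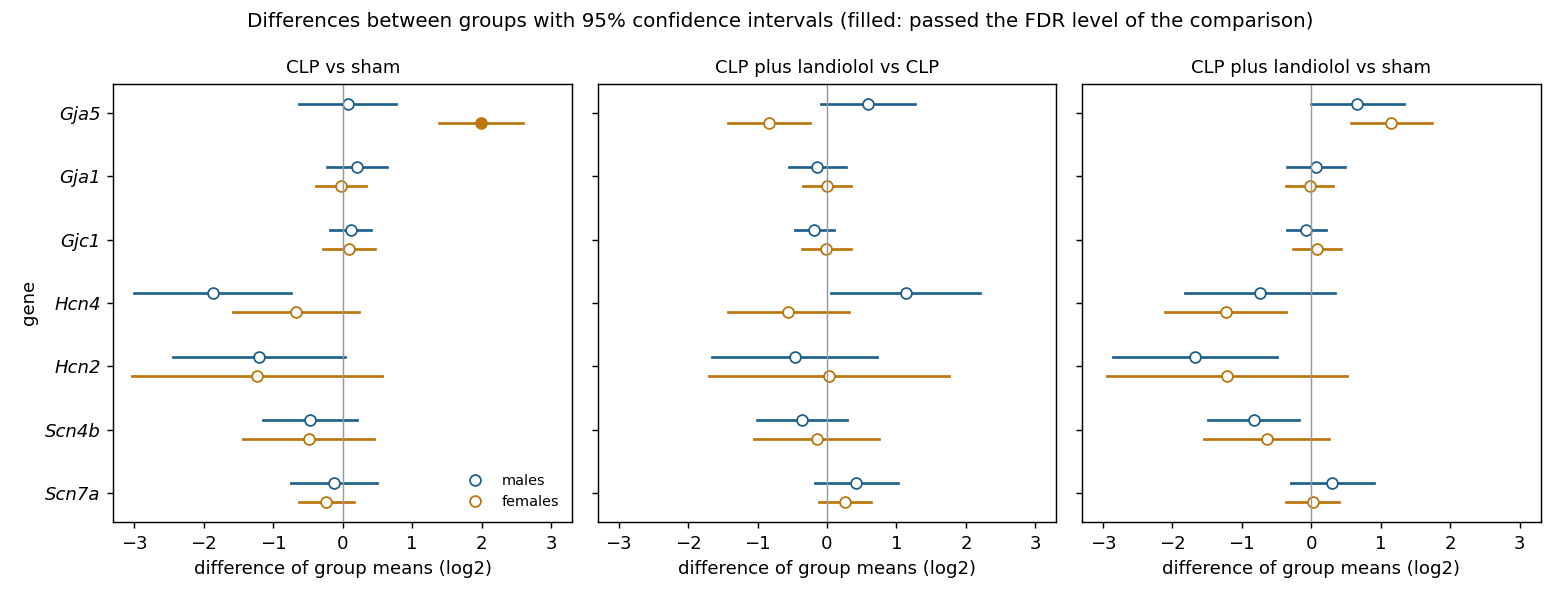
Difference of group means (log2) with its 95% confidence interval for the 7 genes in 3 comparisons, males above and females below each gene line; a filled point passed the FDR level of the comparison. The single filled point is Gja5 in females for CLP vs sham (1.99, interval 1.38 to 2.60).

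Among the other sodium channel subunits, Scn2b and Scn1a passed in males and none passed in females. Of 13 other subunit names 12 were on the array and 6 were bright enough to test. Of all probes, 7.81% in males and 3.63% in females passed for CLP against sham, and 4.15% and 5.25% for landiolol against sham. At an unadjusted p under 0.05 (limma), CLP against sham gave 5 of the 6 in males and 4 in females. Landiolol against sham gave 5 in each sex. The shares of all probes were 28.8% and 23.1% for CLP, and 24.2% and 26.7% for landiolol. In males Scn2b, a beta subunit like Scn4b, fell by 1.99 with CLP (SE 0.27, limma adjusted p = 0.000163) and was -1.34 from sham with landiolol (adjusted p = 0.00379). In females Scn2b differed by -1.14 (adjusted p = 0.0155), short of 1%. Scn1a, a channel better known from neurons, was 1.66 above sham in landiolol-treated males (adjusted p = 0.000704). In landiolol-treated females Scn1a was 1.09 above sham (limma adjusted p = 0.0133), short of 1%. The 6 subunits had a median difference of 0.20 for CLP against sham in males and 0.30 in females.

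Among 15 partners of sodium channels, of which 13 were tested, 1 rose and 2 fell in males with CLP and 1 fell in females. Of all probes, 7.81% passed in males and 3.63% in females. Sntb1, a syntrophin that anchors membrane proteins to the dystrophin complex, fell by 1.36 in males (adjusted p = 0.0097) and by 1.60 in females (adjusted p = 0.00131). Nedd4l, a ubiquitin ligase that removes sodium channels from the membrane, rose by 1.08 in males (adjusted p = 0.00324). In females Nedd4l differed by 0.63 (limma adjusted p = 0.0596). The list's median for CLP against sham was -0.11 in males and -0.22 in females.

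Of 7 other HCN channels and partners, 5 were tested in males and 4 in females. Cav3, the muscle caveolin that binds several ion channels, fell by 0.65 in septic males (adjusted p = 0.00134) and was the only one called. In septic females Cav3 differed by -0.43 (limma adjusted p = 0.0463), short of 1%. Of all probes, 7.81% passed in males and 3.63% in females. Kcne2, a beta subunit that can join HCN channels, differed by -1.01 in males (adjusted p = 0.0786) and by -0.72 in females (adjusted p = 0.383). Hcn3 was bright enough to test only in males, where it differed by 0.08. Of 20 other connexins and pannexins, 7 were tested in males and 6 in females and none passed in any of the 6 comparisons (limma). At an unadjusted p under 0.05 there were 3 for CLP against sham in males and 0 in females, where 28.8% and 23.1% of all probes were. The median differences were -0.26 and 0.25. Gja4 is in this list and among the arterial markers.

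Of 14 intercalated disc genes, all tested, Dsp (desmoplakin) fell by 0.74 in septic males (adjusted p = 0.00299) and Xirp1, an actin-binding disc protein, rose by 1.13 (adjusted p = 0.0074). In septic females Dsp differed by -0.63 (limma adjusted p = 0.0181) and Xirp1 by 1.49 (adjusted p = 0.0688), both short of 1%. Tmem65, a disc protein that binds Cx43, fell by 1.21 in septic females (adjusted p = 0.00405). In septic males Tmem65 differed by -1.04 (limma adjusted p = 0.0366), short of 1%. Against sham, Cdh2 (N-cadherin) was 0.29 higher in landiolol-treated males (limma adjusted p = 0.0691) and 0.70 higher in landiolol-treated females (adjusted p = 0.000932). In the female comparison all sham arrays lay in one row of the slides and all landiolol arrays in the other. The part of the row in the Cdh2 value was not tested. Of 19 transcription factors of conduction tissue and heart chambers, 15 were tested. Hopx and Id2, 2 factors of heart muscle and conduction tissue development, fell by 1.43 (adjusted p = 0.00815) and 0.89 (adjusted p = 0.00502) in septic males, and Tbx20, a T-box factor of the heart, rose by 1.06 in septic females (adjusted p = 0.00947). The median difference for CLP against sham was -0.26 in males and -0.21 in females for the disc genes, and -0.50 and -0.24 for the transcription factors. In that comparison 7.81% of all probes passed in males and 3.63% in females. For landiolol against sham 4.15% and 5.25% passed. Landiolol against CLP gave 0 calls in every one of these 6 related lists in both sexes (limma). Of all probes, 1.56% passed in males and 0.0945% in females. At an unadjusted p under 0.05 a list held 0 to 6 genes, the most being 6 of 14 disc genes in males. Of all probes, 14.8% in males and 9.34% in females were under that p.

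**Figure D4:**
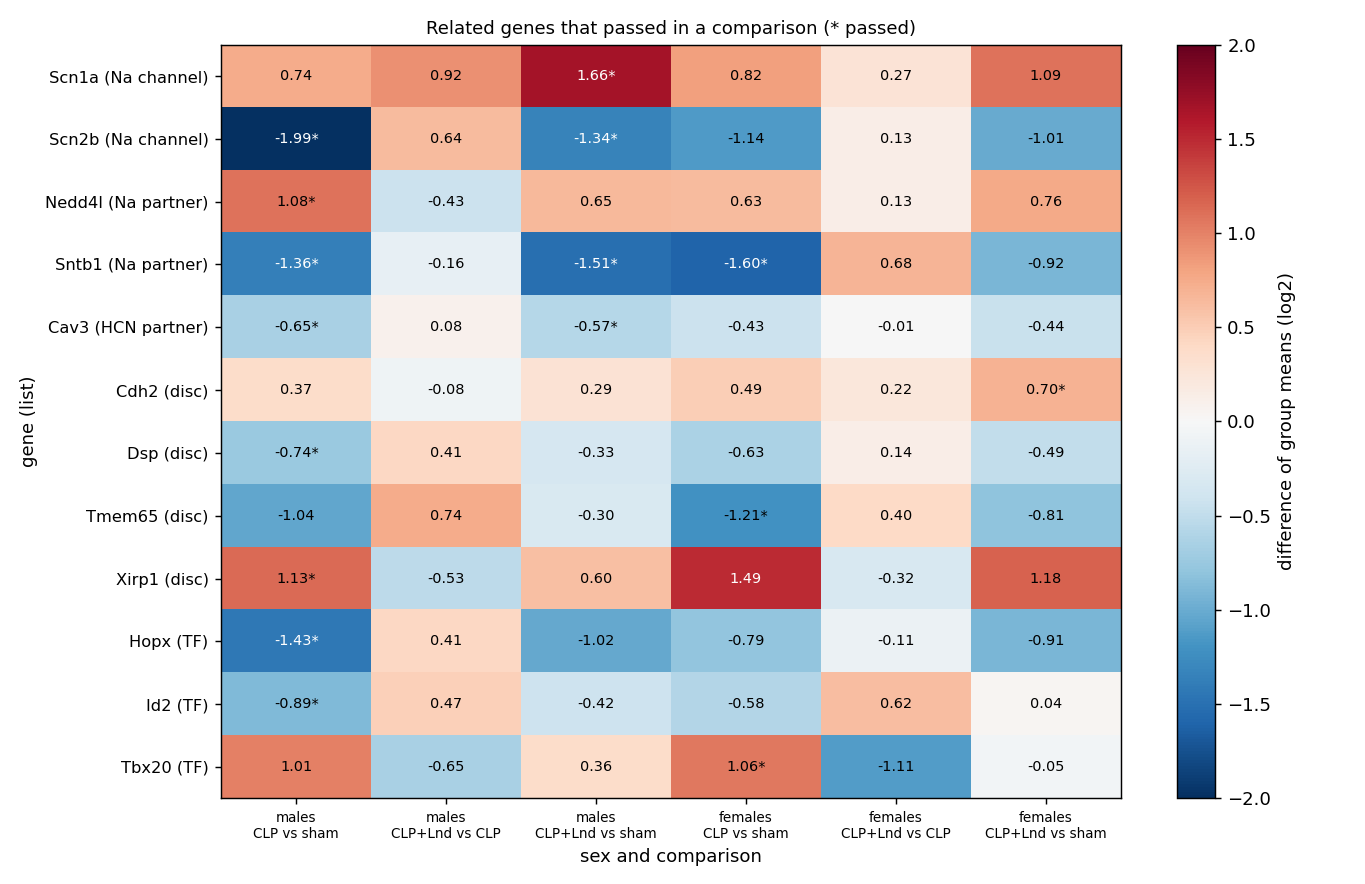
Difference of group means (log2) in 6 comparisons for the related genes named in the text, up to 4 per list, that passed in at least 1 (Na channel, sodium channel subunits; Na partner, sodium channel partners; HCN partner, HCN channels and partners; disc, intercalated disc; TF, transcription factors); an asterisk marks a value that passed the FDR level. Scn2b in males (-1.99) and Sntb1 in females (-1.60) are the largest falls for CLP vs sham.

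The genes whose pattern was most like that of Gja5 were sought among 18995 others tested in both sexes, by the mean of the Pearson correlations over the 16 male and the 16 female arrays. The first was Kcnk6, a background potassium channel of the K2P family (r = 0.67 in males and 0.73 in females). Rec8, a meiotic cohesin subunit (0.55 and 0.82), and Lgals3, a galectin of macrophages and injured tissue (0.63 and 0.71), followed. The arrays of a sex share their slides and their groups, and these values are given as a description.

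Some markers of blood-derived cells moved with CLP in these pieces of tissue. Of 6 leukocyte markers 5 were tested. Of these, 3 rose in septic males (7.81% of all probes passed) and 2 in septic females (3.63%). Cd68, a macrophage protein, was higher by 0.86 in males (limma adjusted p = 0.000758) and by 0.72 in females (adjusted p = 0.00806). S100a8, a protein of neutrophils, passed in both sexes but was well above background on 0 of 5 male and 1 of 5 female sham arrays, so no fold is given. Ptprc, the common leukocyte antigen, differed by -0.14 and -0.23, and Csf1r, a receptor of macrophages, by -0.07 and -0.01, and neither passed. The summed intensity of the list, of which Cd68 made up 48.1% to 69.9% in males and 49.3% to 69.3% in females, ranged from 1140 to 1650 in female sham and from 1860 to 2150 in female CLP. Of 6 fibroblast markers 3 fell and 1 rose in septic males, with a median difference of -0.87. None passed in septic females, where the median was -0.57. At an unadjusted p under 0.05 (limma) there were 6 in males and 5 in females, where 28.8% and 23.1% of all probes were. The part of these cells in the values of the 7 genes was not tested.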

How the data were processed

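Left ventricle RNA of 32 rats was hybridised to 1-colour Agilent rat arrays, with 8 arrays on each of 4 slides and 2 slides for each sex. Groups were taken from the labels. The authors deposited 1 file of scanner output per array, with a processed (background-subtracted) and a mean intensity for every spot. The submitters' processing notes name Agilent Feature Extraction 10.5. The scanner output names protocol GE1_107_Sep09 on 1 of the 2 female slides and GE1_105_Dec08 on every other slide. In females, protocol and slide therefore cannot be told apart. The authors also deposited log2 values, quantile-normalised, which served only as an alternative (rank correlation with the scanner values 0.988 or more on each array).

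Control spots and spots marked as outliers were dropped, and repeated spots of a probe averaged. Processed intensities were log2-transformed and quantile-normalised separately in males and females. No spot used was saturated. A probe was tested in a sex where some group had it well above background in 80% or more of its arrays. One limma 3.58.1 fit (lmFit, eBayes; R 4.3.3, with the data.table package, version 1.17.8) held the 3 groups of each sex. Adjustment was by Benjamini-Hochberg over all probes tested. The FDR was 1% against sham and 5% for landiolol against CLP. Sex differences came from an interaction term, with all 32 arrays normalised as 1 set, at 5%. SAM, which the study's methods name, was run with 100 permutations as an alternative. The fit was tested on simulated data. The number of arrays limits the precision.

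Each gene was counted by its brightest probe. Named were all probes of the 7 genes, up to 4 genes of each related list that passed in any comparison (smallest p for CLP vs sham in males first), and the 3 genes most like any of the 7 that passed against sham. Kcne2, Hcn3, Gja4 and the marker genes were named for their known roles, after their values were seen. Some genes of the lists are counted but not reported by name here. The 7 genes and the lists were chosen with earlier results of these data known. Alternatives were other scalings, background corrections, filters and priors, array weights, terms for slide, row and day, the deposited log2 values, SAM, other FDR levels and leaving out each array.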

Additional observations from a re-analysis of the deposited data

Results flagged for a closer look

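In groups of 5 or 6 arrays, the highest or lowest array was compared with the rest by Dixon's criterion at the 95% level, over 60 groups of values (10 probes in 6 groups). It marked 3, and chance alone marks about 1 in 20. Both Gjc1 probes stood low on the same array, female sham replicate 1, where the brighter probe read 8.83 and the nearest other sham array 9.49, and the second probe read 7.93 and the nearest other 8.28. Hcn2 read 5.13 on male sham replicate 1, and the nearest other sham array 6.97.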

How the results depend on the processing

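The rise of Gja5 in septic females kept its direction and passed the 1% FDR under all 15 other settings and without each of the 10 arrays, with differences from 1.69 to 2.24 and adjusted p up to 0.00678, so 1 gene was called throughout. The count for CLP vs sham in males, 0 by limma, was 1 (Hcn4) with array weights, 1 with SAM and 1 at an FDR of 5%, and 0 without any single array. The count for CLP plus landiolol vs sham in females, also 0, was 1 (Gja5) with eBayes with a trend, 1 with array weights, 1 with SAM and 1 at an FDR of 5%, and from 0 to 1 when single arrays were left out, the 1 being without female sham replicate 3 (difference 1.4, adjusted p = 0.00226). With the row of the array on its slide as a term this Gja5 difference was 0.48. The counts of the other comparisons were 0 under every alternative run. Hcn4 in septic males lay between -2.11 and -1.33, with adjusted p from 0.00116 to 0.072. Of 1078 differences of single genes recomputed, 1011 kept direction and side of the threshold, 8 came to pass, and 59, none of them called, changed sign, among them Scn4b in landiolol-treated females against sham, 0.96 with the row as a term. The cause was not tested. No paired analysis was possible because the labels give no replicate numbers shared between groups. Hcn2, near background on 5 arrays, is the least precise of the 7 genes.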
